A study of Mus musculus with 16 samples.

Results

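The genes described here are 40 enzymes and regulators of the mouse kidney's antioxidant defence, of 27998 genes in the single-cell count files. They were taken by gene symbol, and all 40 symbols were found. The list holds the NRF2 system, the enzymes that make and recycle glutathione, the glutathione transferases, 3 glutathione peroxidases, the thioredoxins and peroxiredoxins, the superoxide dismutases, and 4 enzymes of the pentose phosphate pathway. The rule uses symbols and no threshold on a value, but the list was drawn up with earlier results of these data known. The kidneys came from C57BL/6 mice, either wild type or Gulo-/-. Gulo encodes the last enzyme of vitamin C (ascorbate) synthesis, and the labels give no age, sex, diet or ascorbate supply. Each genotype had 2 single-cell libraries, labelled replicates 1 and 2, and the kidneys were minced and mixed before the material was split between assays. The labels do not say how many mice a library holds. The 2 libraries of each genotype differed in sex, as read from Xist and Ddx3y, so they came from different animals, and sex and depth add to the variation between them that each p-value reflects. Methylation values come from the authors' deposited table of regions that compares the genotypes by bisulfite sequencing.

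NRF2, encoded by Nfe2l2, is a transcription factor that the adaptor KEAP1 marks for destruction until oxidants or electrophiles modify KEAP1. Freed NRF2 pairs with small MAF proteins on the antioxidant response element in DNA and raises the transcription of detoxifying and glutathione genes. Glutathione is built by glutamate-cysteine ligase and glutathione synthetase, is spent by peroxidases and transferases, and is restored by glutathione reductase with NADPH, which the pentose phosphate pathway supplies. Glutathione can restore the reduced form of ascorbate, which is why these genes are of interest in a mouse that cannot make ascorbate. The nephron's proximal tubule carries heavy oxidative metabolism and makes the glutathione peroxidase that circulates in blood plasma.

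In UMIs (unique molecular identifiers, 1 per captured RNA molecule), the depth was 10208946 for wild type replicate 1, 61688164 for wild type replicate 2, 10073836 for Gulo-/- replicate 1 and 88925323 for Gulo-/- replicate 2. Values given as a run of 4 follow that order. Cells were assigned to a class by the UMIs of marker genes, none of them among the 40, and a class so made is called "gated". Proximal tubule-gated cells numbered 1299, 5926, 918 and 2941 in the 4 libraries. Every class had its own markers in every library, and summed proximal tubule markers were 8418 to 15880 CPM (UMIs per 1000000 UMIs of the class) in their own class. Of the barcodes of wild type replicate 2, 986 also occurred in wild type replicate 1, against 33.5 expected, and they were left out of replicate 2. Gulo itself had 0, 1, 0 and 2 UMIs, so the targeted gene could not be checked at this depth. Wild type replicate 2 stood apart in some members, among them Gsta4, Gsta1 and Gstp1. In proximal tubule-gated cells Gsta4 was at 18.6 CPM in that library and at 554, 381 and 487 CPM in wild type replicate 1 and Gulo-/- replicates 1 and 2. Gsta1 was also lowest in wild type replicate 2 in these cells, and its values are given with the genotype comparison. Gstp1 was lower in that library than in the others in every one of the 7 classes compared.

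The promoters of the members were searched for the core of the antioxidant response element, TGACNNNGC, on both strands. The windows, from RefSeq on build GRCm38.p6, run from 250 bases before to 50 bases after the start of transcription, and 35 of the 40 members had one. The core was in the window of 11 of these members, or 31.4%, against 13.99% of the 27025 genes with a window. The 11 are Nfe2l2 itself, Gclm, Gsta3, Gstm5, Mgst1, Txnrd1, Srxn1, Prdx1, Sod1, G6pdx and Pgd. A match describes letters and not a site where NRF2 binds. A longer form, the core followed directly by A, was in 3 members, Gsta3, Pgd and Txnrd1 (8.57%, against 3.45% of genes). Those 3 are shown first below, then Nfe2l2 and Prdx1. Last come the 3 whose printed stretch lies inside one of the authors' regions of differential methylation (Gclm, Srxn1 and G6pdx). Each line gives 5′ to 3′ the strand that holds the motif, and the capitals mark the core.
Gsta3, chr1:21240457-21240479, strand of the gene: tcaggcaTGACATTGCatttttc
Pgd, chr4:149166064-149166086, strand of the gene: tcagagcTGACATTGCactgatc
Txnrd1, chr10:82859107-82859129, opposite strand: gtcagaaTGACAAAGCaaaaatc
Nfe2l2, chr2:75704888-75704910, strand of the gene: gcccaccTGACTCCGCcatgccc
Prdx1, chr4:116685459-116685481, opposite strand: cgggggaTGACTCAGCgctttcc
Gclm, chr3:122245416-122245438, opposite strand: tgagagtTGACGGTGCgcccggg
Srxn1, chr2:152105545-152105567, opposite strand: ctcactcTGACCTAGCtgcccac
G6pdx, chrX:74428922-74428944, opposite strand: tgtgcttTGACTGAGCtgacccg

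The first comparison asked which antioxidant genes each cell class uses. By mean level over libraries, 22 of the 40 members were highest in proximal tubule-gated cells, 5 in macrophage-gated cells and 4 each in principal and intercalated cells of the collecting duct. Endothelial and thick ascending limb cells were highest for 2 members each, and cells of the distal convoluted and connecting tubule for 1. For a test, each class was set against the mean of the other 6 classes with the library as a term (edgeR's quasi-likelihood test, Benjamini-Hochberg adjusted p under 0.05). In proximal tubule-gated cells 38 of 40 members passed, where 65.8% of all 9692 genes tested did. Of these, 33 were higher (35% of all genes) and 5 lower (30.8%). The median log2 difference was 1.63 over the members and -0.032 over all genes tested. A library needed 20 cells of a class to enter, which left wild type replicate 1 out for the distal convoluted and connecting tubule, principal and intercalated classes, with 18, 6 and 10 cells.

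**Figure D1:**
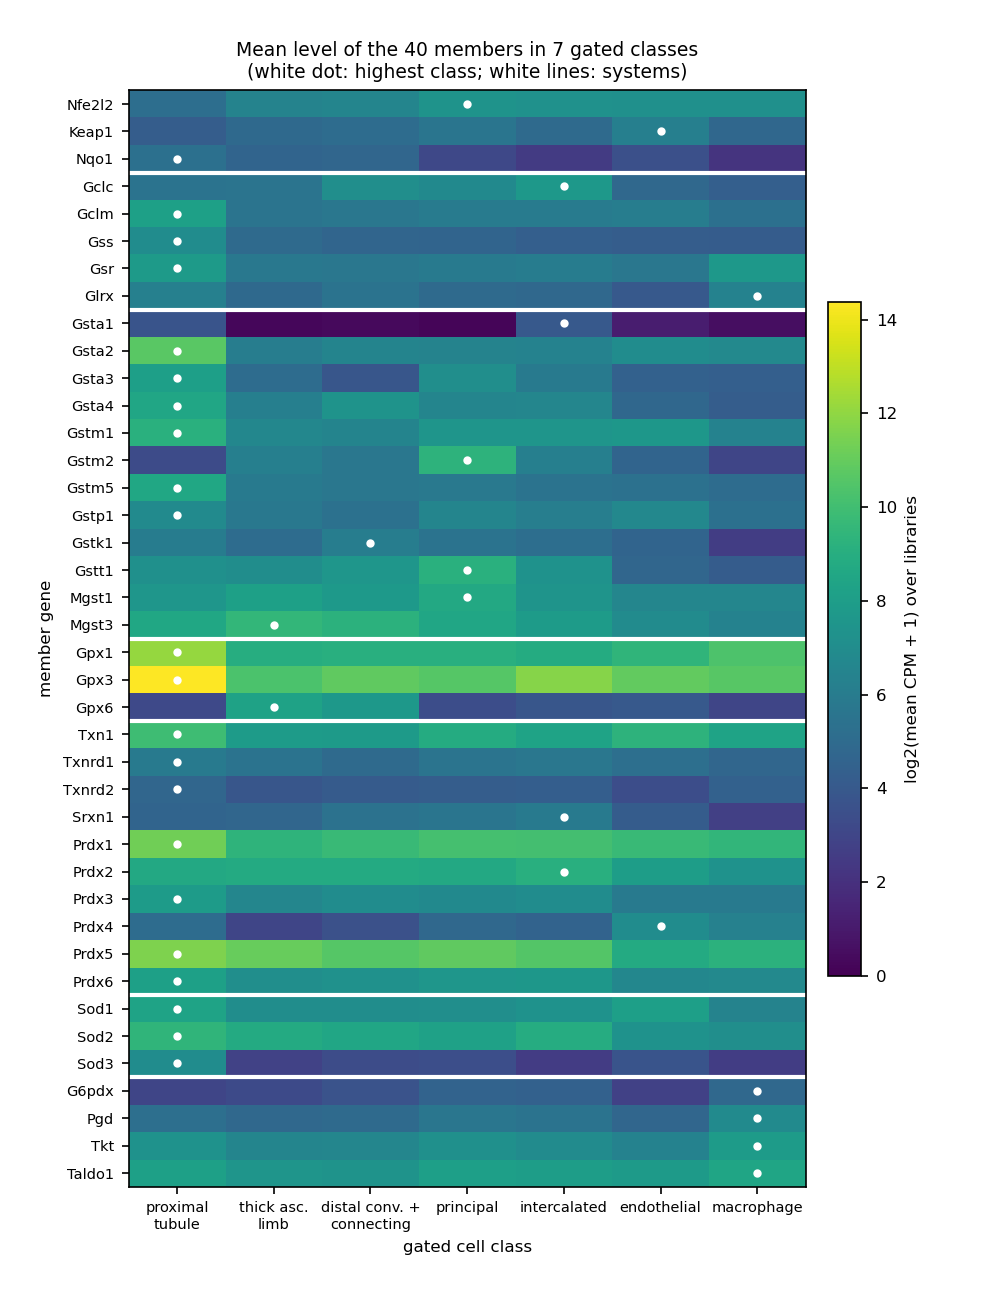
Mean level of each of the 40 members (rows, grouped by system) in the 7 gated classes (columns), as log2 of the mean CPM over the libraries with at least 20 cells, plus 1. White dots mark the highest class, which is the proximal tubule for 22 members.

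The regulators Nfe2l2 and Keap1 had their highest levels outside the proximal tubule. Nfe2l2 had 25.3 and 26.9 CPM in wild type and 42.3 and 49.0 CPM in Gulo-/- proximal tubule-gated cells, lower than the mean of the other classes by a log2 difference of -1.34 ± 0.15 (SE, adjusted p = 3.22e-09). In principal cells it was at 186 CPM in wild type replicate 2 and 156 and 154 CPM in the Gulo-/- libraries. No library of the 2 classes overlapped. Keap1 was also lower in the proximal tubule (-0.51 ± 0.15, adjusted p = 0.00356) and was highest in endothelial cells (1.0 ± 0.15, adjusted p = 1.72e-06), at 60.5 to 82.1 CPM against 14.4 to 20.6 CPM in the proximal tubule. Nqo1, a quinone reductase and a classical NRF2 target, went the other way and was higher in the proximal tubule (2.39 ± 0.19, adjusted p = 1.55e-12) and in distal convoluted and connecting tubule cells (1.41 ± 0.26, adjusted p = 1.1e-04). It was lower in principal (-1.15 ± 0.32) and intercalated cells (-1.69 ± 0.35).

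The steps of glutathione making were split between segments. Gclc, which encodes the catalytic subunit of glutamate-cysteine ligase (chr9:77754535-77794489), was highest in intercalated cells, at 158 CPM in wild type replicate 2 and 252 and 210 CPM in the Gulo-/- libraries, a log2 difference of 1.66 ± 0.14 (adjusted p = 4.9e-11). It was also higher in distal convoluted and connecting tubule cells (1.28 ± 0.15) and principal cells (0.52 ± 0.15). In proximal tubule-gated cells, at 26.5, 54.4, 45.3 and 47.4 CPM, it did not differ detectably from the mean of the other classes (0.04 ± 0.14, adjusted p = 0.858). Gclm, which encodes the modifier subunit of the same ligase, was higher in the proximal tubule (2.86 ± 0.15, adjusted p = 8.26e-17), at 343, 380, 193 and 219 CPM. Gss, glutathione synthetase (3.06 ± 0.14), and Gsr, glutathione reductase (2.39 ± 0.20), were higher in the proximal tubule as well. Gsr was also higher in macrophages (1.78 ± 0.23, adjusted p = 6.82e-07), where its libraries spread from 59.3 to 520 CPM. Glrx, a glutaredoxin that removes glutathione from proteins, was higher in macrophages (1.52 ± 0.22) and in the proximal tubule (1.65 ± 0.16).

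The 12 transferases, which join glutathione to electrophiles, were divided between segments. Gsta2 was at 2757, 846, 1676 and 1539 CPM in the proximal tubule (4.64 ± 0.18, adjusted p = 1.22e-16). Gsta3, Gstm1 and Gstm5, which belong to the alpha and mu families, were higher there by 3.42 ± 0.16, 2.70 ± 0.14 and 3.59 ± 0.14. Gstm2 was the exception among the mu genes. It was lower in the proximal tubule (-2.09 ± 0.37, adjusted p = 5.75e-05) and highest in principal cells, at 938, 572 and 378 CPM (4.13 ± 0.28, adjusted p = 3.96e-10). Gstt1, a theta transferase, was also highest in principal cells, at 676, 467 and 566 CPM (2.56 ± 0.17, adjusted p = 2.31e-13), and Gsta3 (1.43 ± 0.21) and the membrane-bound Mgst1 (0.88 ± 0.24) were higher there. These traits were shared with other classes. Gstt1 also passed as higher in the proximal tubule, the distal convoluted and connecting tubule and intercalated cells. Mgst1 did so in the proximal tubule and the thick ascending limb, and Gstm2 in the thick ascending limb. Mgst3, a microsomal transferase, led in the thick ascending limb, at 664, 511, 692 and 1065 CPM (1.62 ± 0.14, adjusted p = 1.63e-10), and was higher in the distal convoluted and connecting tubule (1.38 ± 0.16).

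Gsta1 was higher in intercalated cells (4.01 ± 0.87, adjusted p = 0.00184), at 29.2, 3.36 and 12.6 CPM, and in the proximal tubule (3.67 ± 0.68), while thick ascending limb cells had 0 UMIs of it in 3 of 4 libraries. The mu, alpha and theta genes lie in families of close copies, and reads that match several copies can be lost or misplaced between them. Gstk1 was higher in distal convoluted and connecting tubule cells, at 42.2 to 91.5 CPM (1.22 ± 0.22), and in the proximal tubule. Its mean levels in these 2 classes were close, at 67.4 and 65.95 CPM. Gstp1 and Gsta4 were higher in the proximal tubule (1.49 ± 0.32 and 2.66 ± 0.45), but not in every library. Endothelial Gstp1 was at 40.7% and 38.5% of its proximal tubule level in wild type, but at 152% and 168% in Gulo-/-. In principal cells it was at 31.6% in wild type replicate 2 and at 126% and 156% in Gulo-/-. Mean Gstp1 was 115.5 CPM in the proximal tubule and 103.8 CPM in endothelial cells. In wild type replicate 2 Gsta4 was lower in the proximal tubule (18.6 CPM) than in the thick ascending limb (84.0 CPM), and in the 3 other libraries it was higher in the proximal tubule.

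Of the peroxidases, Gpx3 encodes the secreted plasma enzyme (chr11:54902854-54910387) and had the most UMIs of any member in the proximal tubule. In the thick ascending limb and in principal cells Prdx5 had more in every library but wild type replicate 2, where Gpx3 led (2616 against 2055 CPM and 2675 against 2171 CPM). Gpx3 reached 19160, 18730, 23850 and 24140 CPM in proximal tubule-gated cells (4.41 ± 0.19, adjusted p = 7.1e-14). Its level elsewhere is given beside that of the markers used to gate the proximal tubule. In the thick ascending limb, Gpx3 was at 2.5%, 14%, 3.97% and 4.38% of its proximal tubule level, and the summed proximal tubule markers were at 3.16%, 11.6%, 4.56% and 4.81%. In intercalated cells Gpx3 was at 24.5%, 12.6% and 12.5%, above the markers at 10.4%, 3.64% and 3.6%. Gpx1, the cytosolic peroxidase, was higher in the proximal tubule (3.33 ± 0.13) and in macrophages (1.09 ± 0.15, adjusted p = 3.96e-07). Gsta2 elsewhere followed the markers too, at 1.68% to 11.6% of its proximal tubule level in the thick ascending limb.

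Gpx6, which encodes another glutathione peroxidase (chr13:21295465-21319625), had the opposite map. It was at 216, 167, 346 and 542 CPM in thick ascending limb-gated cells (4.76 ± 0.28, adjusted p = 7.46e-11), and at 66.8, 238 and 295 CPM in distal convoluted and connecting tubule-gated cells (3.50 ± 0.32). In the latter gate thick ascending limb markers were also high, at 1046 CPM in wild type replicate 2 and 4345 and 3702 CPM in the Gulo-/- libraries, and their part in the Gpx6 level there was not tested. Gpx6 was at 40%, 68.7% and 54.5% of its thick ascending limb level in that gate, where those markers were at 5.78%, 23.1% and 19.6%. In the authors' deposited table of cluster markers, Gpx6 is listed for the clusters the authors named LOH and DCT1, where 78.3% and 68.8% of cells had it.

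**Figure D2:**
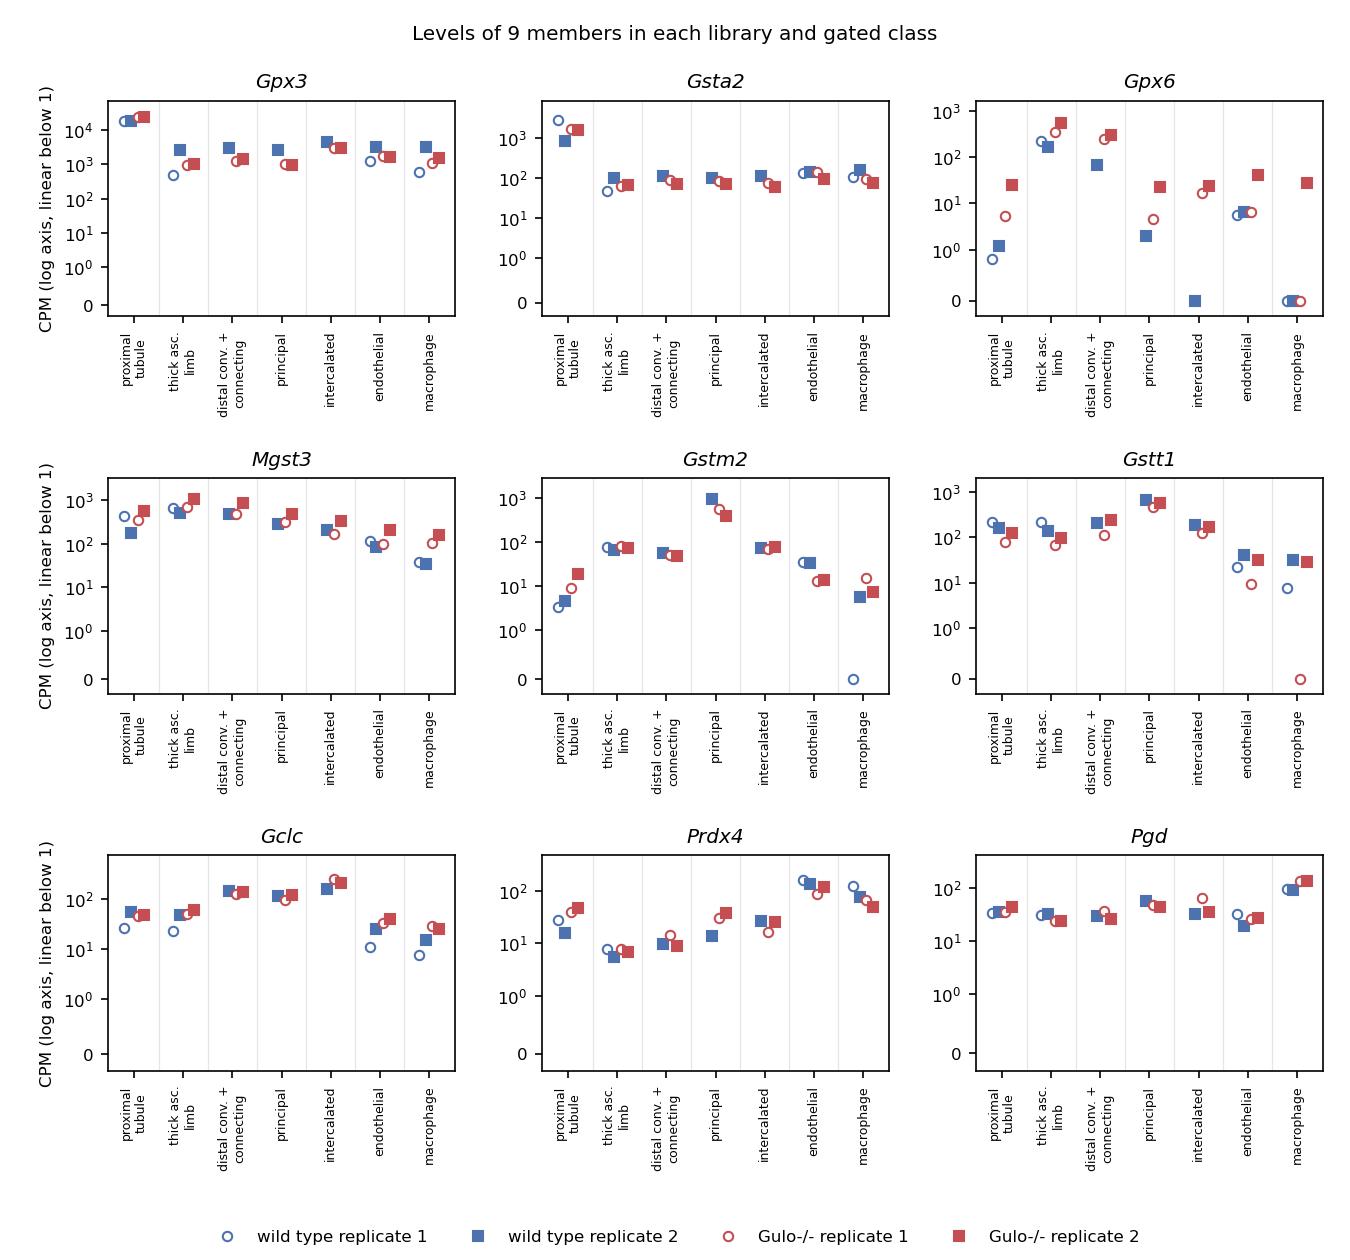
CPM of 9 members in each library (points; circles are replicate 1, squares replicate 2) and gated class, on a log axis that is linear below 1. Gpx3 and Gsta2 peak in the proximal tubule, Gpx6 and Mgst3 in the thick ascending limb, Gstm2 and Gstt1 in principal cells, Gclc in intercalated cells, Prdx4 in endothelial cells and Pgd in macrophages.

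Thioredoxin and the peroxiredoxins, which remove peroxides with thioredoxin as the reductant, were summed over 10 members. The sum was at 6495 to 8592 CPM in the proximal tubule and 1416 to 2731 CPM in macrophages, with the other classes between 2241 and 4837 CPM. Prdx5 was at 3129, 3345, 3418 and 2352 CPM in the proximal tubule (1.98 ± 0.13) and was higher in the thick ascending limb (0.80 ± 0.14, adjusted p = 2.58e-05), at 1720 to 2339 CPM. Prdx1 (2.03 ± 0.13), the mitochondrial Prdx3 (1.82 ± 0.16), Prdx6 (1.55 ± 0.14) and Txn1 (2.01 ± 0.13) were higher in the proximal tubule. Srxn1, which repairs overoxidized peroxiredoxins, was higher in intercalated cells (1.08 ± 0.23), distal convoluted and connecting tubule cells (0.77 ± 0.25) and principal cells (0.66 ± 0.24). Prdx4, the peroxiredoxin of the secretory pathway, was highest in endothelial cells, at 161, 136, 89.5 and 121 CPM (2.18 ± 0.22, adjusted p = 1.15e-09). It was also higher in macrophages (1.88 ± 0.29) and in the proximal tubule. It was lowest in the thick ascending limb, at 5.39 to 7.93 CPM (-2.39 ± 0.35).

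All 3 superoxide dismutases were higher in the proximal tubule. The secreted Sod3 had the largest difference of the 3 (4.51 ± 0.18, adjusted p = 1.83e-20), at 102, 96.8, 177 and 125 CPM there and 0 to 14 CPM in the thick ascending limb. The mitochondrial Sod2 was also higher in the thick ascending limb (0.47 ± 0.15) and in intercalated cells (0.48 ± 0.17), and the cytosolic Sod1 in endothelial cells (0.65 ± 0.16, adjusted p = 7.89e-04).

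The 4 pentose phosphate enzymes were highest in macrophages. Pgd, the second NADPH-making enzyme of the pathway, was at 97.4, 93.2, 133 and 137 CPM (2.02 ± 0.16, adjusted p = 7.78e-13). G6pdx, which starts the pathway, was higher by 1.70 ± 0.31 and Tkt and Taldo1, of its non-oxidative branch, by 1.35 ± 0.16 and 0.87 ± 0.14. In the proximal tubule G6pdx was lower (-0.57 ± 0.23, adjusted p = 0.0291), at 6.3 to 7.7 CPM, while Tkt (0.90 ± 0.15) and Taldo1 (0.81 ± 0.13) were higher.

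By class, 18 members passed in the thick ascending limb (30.9% of all genes), 7 higher (16.4%) and 11 lower (14.5%). In the distal convoluted and connecting tubule 15 passed (25%), 9 higher (13.8%) and 6 lower (11.2%). In principal cells 19 passed (31.6%), 6 higher (17.1%) and 13 lower (14.6%), and in intercalated cells 15 (28.1%), 6 higher (14.8%) and 9 lower (13.3%). In endothelial cells 31 passed (56%), 4 higher (30.1%) and 27 lower (25.9%), and in macrophages 27 (47.9%), 9 higher (23.3%) and 18 lower (24.6%). Among 62 other genes of these pathways, 52 were tested, and 38 were higher and 6 lower in the proximal tubule. The higher ones include Cat, catalase (2.94 ± 0.11), Idh1, an NADPH-making dehydrogenase (4.05 ± 0.14), and Ggt1, which breaks down glutathione outside the cell (3.21 ± 0.20). Hmox1, heme oxygenase, an NRF2 target, was higher in macrophages (3.17 ± 0.36) and in the proximal tubule (2.50 ± 0.29). Nfe2l1, a relative of Nfe2l2, was lower in the proximal tubule (-2.26 ± 0.19).

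The second comparison was within the proximal tubule, between cells gated as its first segment (S1) and its last (S3). Only wild type replicate 2 (1107 S1-gated and 1452 S3-gated cells) and Gulo-/- replicate 2 (1326 and 96 cells) had enough of both, so the test compares 2 libraries that differ in genotype and sex. In edgeR's quasi-likelihood test with the library as a term, 12 members passed, where 7.71% of the 10770 genes tested did. In S3-gated cells 8 were higher (4.39% of all genes) and 4 lower (3.31%). The glutathione-making genes were higher: Gclc by 1.65 ± 0.26 (adjusted p = 1.07e-07), Gclm by 1.17 ± 0.20 and Gss by 1.13 ± 0.23. Gclc was at 29.9 CPM in S1-gated and 96.4 CPM in S3-gated cells of wild type replicate 2, and at 50.2 and 156 CPM in Gulo-/- replicate 2. Nqo1 had the largest difference that passed the test (2.18 ± 0.29, adjusted p = 1.2e-09), from 18.0 to 54.1 CPM in wild type replicate 2 and from 22.2 to 168 CPM in Gulo-/- replicate 2. Gstm1 (1.31 ± 0.18), Prdx4 (0.93 ± 0.30), Sod3 (0.87 ± 0.24) and Txn1 (0.54 ± 0.17) were also higher in S3-gated cells.

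Gsta2 was lower in S3-gated cells (-1.78 ± 0.18, adjusted p = 1.27e-11), from 1142 to 428 CPM in wild type replicate 2 and from 1583 to 358 CPM in Gulo-/- replicate 2. Tkt (-1.37 ± 0.25), Gstt1 (-0.89 ± 0.25) and Prdx2 (-0.59 ± 0.20) were lower too. Gpx3 was at 27060 and 28510 CPM in S1-gated and 12590 and 5852 CPM in S3-gated cells, but its difference did not pass the test (-1.71 ± 0.64, adjusted p = 0.66). Nfe2l2 did not differ detectably (-0.14 ± 0.33, adjusted p = 0.947). Among the 62 other genes of the pathways 7 were higher and 4 lower, among them Ggt1 (1.88 ± 0.20) and Ggct, which acts in glutathione breakdown (1.96 ± 0.27). With DESeq2's Wald test 7 members were called in place of 12, and without doublet removal 7.

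**Figure D3:**
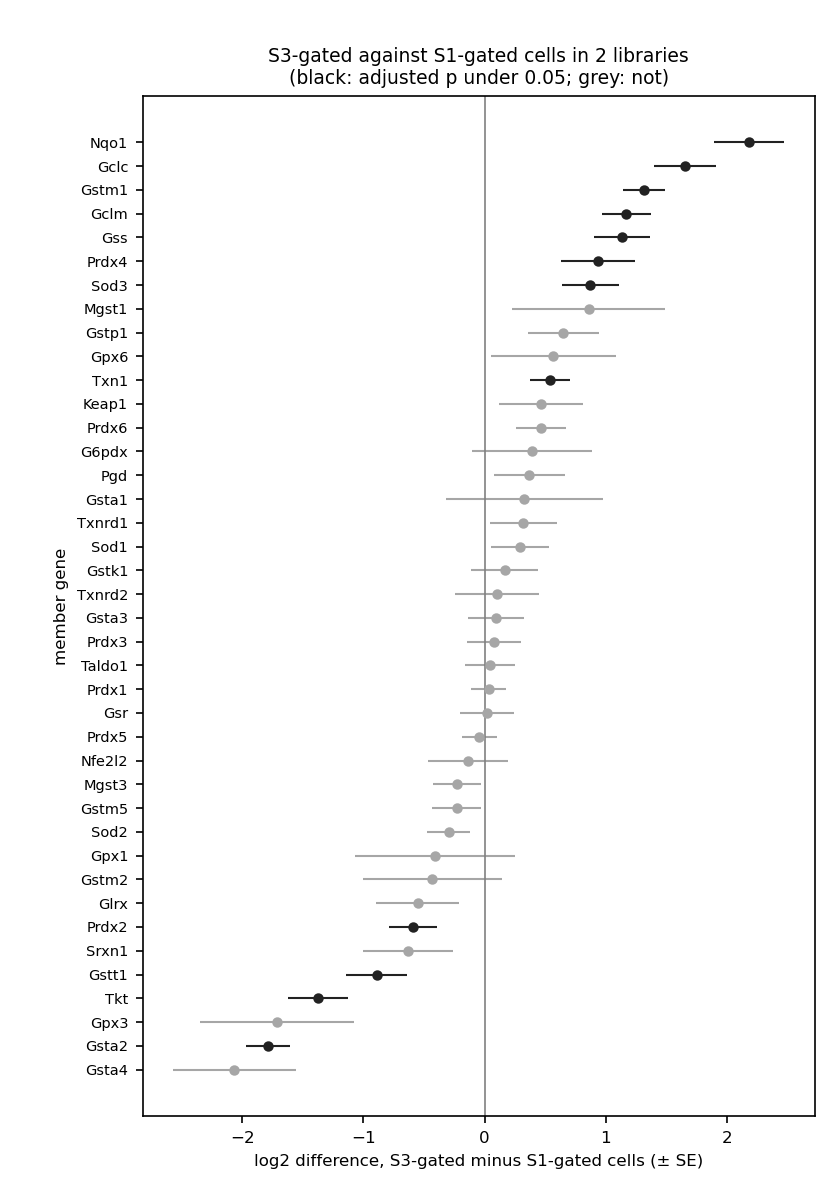
Log2 difference of each member between S3-gated and S1-gated cells, with its standard error, from 2 libraries (wild type replicate 2 and Gulo-/- replicate 2). Black points passed the test: 8 members, led by Nqo1 and Gclc, lie to the right and 4, led by Gsta2, to the left.

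The third comparison asked how the members differed between Gulo-/- and wild type cells of 1 class. In proximal tubule-gated cells 0 of the 40 members passed the test over all 11124 genes, of which 0.207% did (0.0899% higher and 0.117% lower). At an unadjusted p under 0.05 there were 9 members, and DESeq2's Wald test called 3 (Gpx6, Gstm2 and Gclm). For counts at an unadjusted p or from DESeq2, here and below, no share of all genes is given. Such counts are therefore not read as a result about the members. The libraries of the genotypes did not overlap for 10 members that were higher and 10 that were lower in Gulo-/-, where 34.6% and 16.7% of all genes did so. The members' median log2 difference was -0.134 and that of all genes 0.028.

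Of the non-overlapping members, 4 differed at least 2-fold in mean level. Gpx6 had 0.824 and 1.20 CPM in wild type and 5.22 and 24.3 CPM in Gulo-/- proximal tubule-gated cells (3.67 ± 0.78, edgeR adjusted p = 0.154). Gsta1 was at 5.77 and 0.481 CPM against 21.9 and 22.1 CPM (2.88 ± 1.40, adjusted p = 0.429). As a ratio, the wild type libraries lay farther from each other than wild type replicate 1 from the Gulo-/- ones, and without wild type replicate 1 Gsta1 passed the test (5.39 ± 0.45, adjusted p = 6.75e-04). Gstm2 was at 3.30 and 4.52 CPM against 8.96 and 18.7 CPM (1.67 ± 0.38, adjusted p = 0.129), and Mgst1 at 144 and 94.8 CPM against 217 and 281 CPM (0.90 ± 0.30, adjusted p = 0.224).

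Among members with the opposite sign, Gclm had 343 and 380 CPM in wild type and 193 and 219 CPM in Gulo-/- (-0.96 ± 0.23, adjusted p = 0.143). The gate held 11, 1452, 17 and 96 S3-gated cells in the 4 libraries, and Gclm was higher in S3-gated than in S1-gated cells. The part of this mix in the genotype differences was not tested. In S1-gated cells Gclm was at 306 and 218 CPM against 167 and 205 CPM (-0.60 ± 0.29, edgeR adjusted p = 0.282). Gstt1 was at 221 and 163 CPM against 79.4 and 128 CPM (-1.06 ± 0.31, adjusted p = 0.180), and Gpx1 at 6597 and 4594 CPM against 3563 and 2889 CPM (-0.95 ± 0.35, adjusted p = 0.260). Prdx1, the remaining member with a negative difference and an unadjusted p under 0.05, had -0.72 ± 0.30 (adjusted p = 0.301). Nfe2l2 (0.66 ± 0.22, adjusted p = 0.222) and Prdx4 (0.83 ± 0.34, adjusted p = 0.291) had positive differences. Nqo1 was at 35.4 and 37.7 CPM against 44.5 and 36.9 CPM, and these overlapped.

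**Figure D4:**
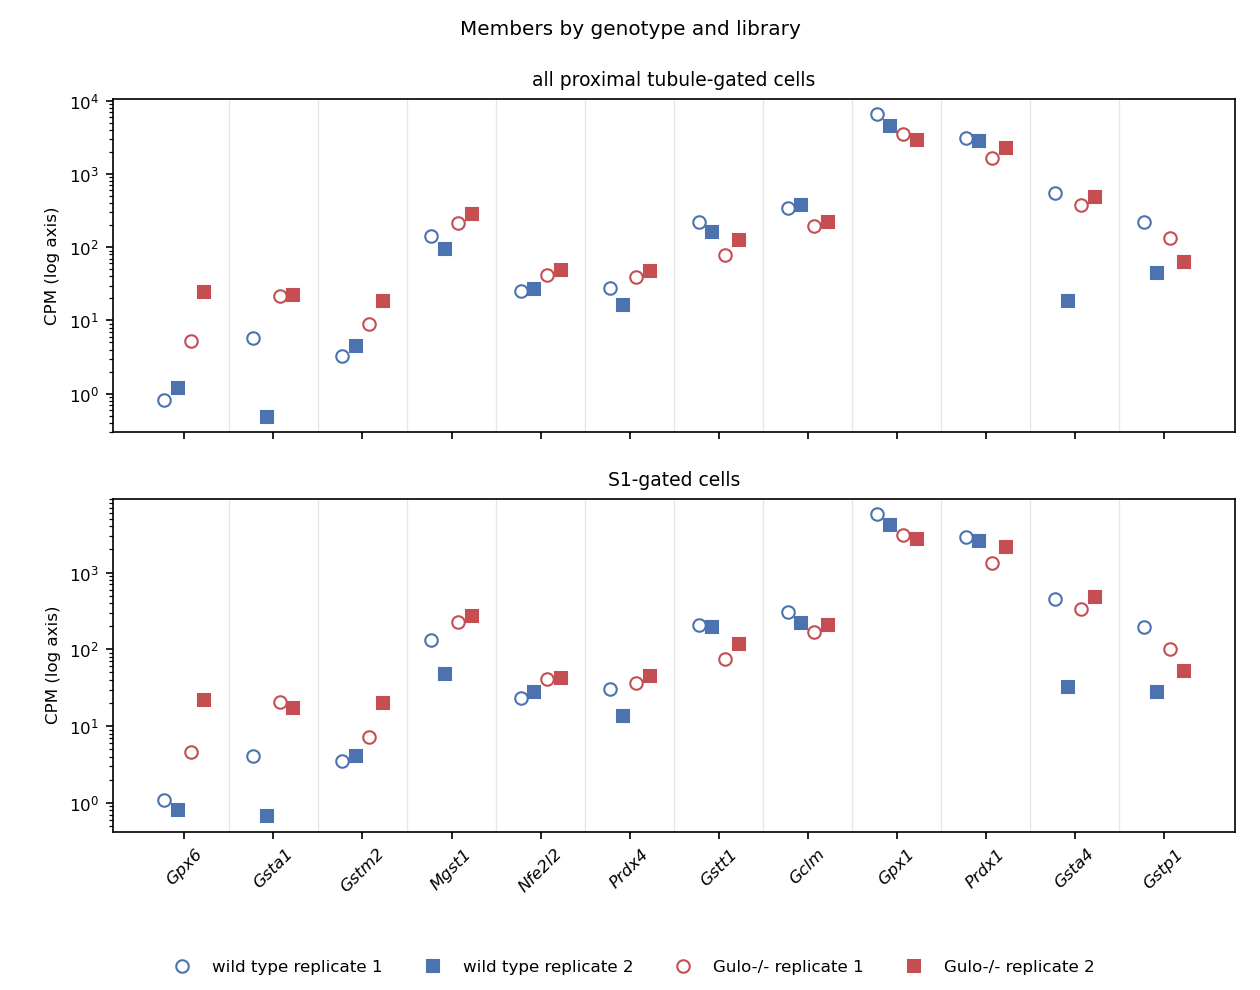
CPM of 12 members in each library, in all proximal tubule-gated cells (top) and in S1-gated cells (bottom), on log axes; circles are replicate 1 and squares replicate 2. Gpx6 and Gstm2 lie higher in both Gulo-/- libraries, Gstt1 lower, and Gsta4 is low in wild type replicate 2 alone.

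In S1-gated cells 3 of 40 members passed, where 2.98% of the 10150 genes tested did (1.65% higher and 1.33% lower). Gstt1 fell (-1.15 ± 0.28, edgeR adjusted p = 0.0390), from 208 and 194 CPM in wild type to 74.6 and 119 CPM in Gulo-/- (chr10:75783813-75798584). Gpx6 rose (3.87 ± 0.73, adjusted p = 0.0354), from 1.08 and 0.8 CPM to 4.54 and 21.8 CPM, or 4 and 6 UMIs against 7 and 134. Gstm2 rose (1.80 ± 0.44, adjusted p = 0.0420; chr3:107981702-107986420), from 3.52 and 4.13 CPM to 7.14 and 19.8 CPM. For all 3 genes the genotypes did not overlap, and for Gpx6 and Gstm2 Gulo-/- replicate 2 was far above Gulo-/- replicate 1.

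Markers of the classes where Gpx6 and Gstm2 are high were also found in S1-gated cells, at their highest in Gulo-/- replicate 2. Summed thick ascending limb markers in S1-gated cells were at 19.8 and 124 CPM in wild type and 80.5 and 700 CPM in Gulo-/-, with 1 of 5 markers at 0 in each of the replicate 1 libraries. These markers were lower in Gulo-/- replicate 1 than in wild type replicate 2, while Gpx6 was higher. In Gulo-/- replicate 2 these markers were at 3.71% of their own class's level in S1-gated cells and Gpx6 was at 4.02%, and in Gulo-/- replicate 1 they were at 0.428% and Gpx6 at 1.31%. In wild type replicates 1 and 2 the markers were at 0.138% and 0.687%, and Gpx6 at 0.501% and 0.479%. In principal, intercalated, endothelial and macrophage cells of Gulo-/- replicate 2, Gpx6 was at 22.3, 23.4, 41.6 and 27.8 CPM, each above its level in S1-gated cells of that library. Principal cell markers in S1-gated cells were at 0.292% of their own class's level in wild type replicate 2 and at 0.345% and 0.87% in Gulo-/-, and Gstm2 was at 0.441%, 1.25% and 5.23%. Their part in the 2 rises was not tested. All 3 called genes were lower in S1-gated cells than over all cells. With the test limited to genes whose S1 level was no lower than that over all cells, 0 of 23 members passed, while 2.24% of such genes did.

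Each of the 3 S1 calls was lost without any 1 of the 4 libraries. Without wild type replicate 1 another 3 members passed, Gsta1 (4.70), Gsta4 (3.59) and Mgst1 (2.36), and without any other library 0 did. With sex as a block, Gstt1 (-1.18 ± 0.25, adjusted p = 0.0381) and Gpx6 (3.38 ± 0.56, adjusted p = 0.0105) passed and Gstm2 did not (adjusted p = 0.0980). Of the 62 other genes of the pathways, 52 were tested in S1-gated cells. Gpx8, a peroxidase of the endoplasmic reticulum, rose, with 0 and 1 UMIs in wild type and 5 and 35 in Gulo-/-. Between classes, Gpx8 was higher in endothelial and principal cells and lower in the proximal tubule. Principal cell markers in S1-gated cells were at 30.35 and 63.6 CPM in wild type and 103 and 317.5 CPM in Gulo-/-. Endothelial markers were at 14.6 and 18.8 against 115 and 78.7 CPM, and the part of either in the Gpx8 rise was not tested. Hagh, of methylglyoxal removal, fell (-1.16 ± 0.28), as did Msra, which repairs oxidized methionine (-1.15 ± 0.27), Me1, an NADPH-making malic enzyme (-1.04 ± 0.26), and Ggct (-1.17 ± 0.29).

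In thick ascending limb-gated cells (32, 172, 111 and 3379 cells) 1 of 35 members tested passed, where 2.22% of 6079 genes did (1.14% higher and 1.09% lower). Gpx6 rose there by 1.18 ± 0.32 (edgeR adjusted p = 0.0127), from 216 and 167 CPM in wild type to 346 and 542 CPM in Gulo-/-. It was 1 of 5 members for which both Gulo-/- libraries lay above both wild type ones (24.9% of all genes). For 8 members both Gulo-/- libraries lay below both wild type ones (11.2% of all genes). Markers of the distal convoluted and connecting tubule, the other class with high Gpx6, were at 23.2 and 29.1 CPM in wild type and 140 and 171 CPM in Gulo-/- thick ascending limb-gated cells, with 4, 3, 3 and 0 of 6 markers at 0. Principal cell markers were at 0 and 49.6 against 87.2 and 309 CPM, and endothelial markers at 38.6 and 12.9 against 132 and 79.5 CPM. Their part in the Gpx6 rise was not tested. Proximal tubule markers were at 405 to 502 CPM in 3 libraries and 1365 CPM in wild type replicate 2. The call was lost without wild type replicate 1 (adjusted p = 0.0994), wild type replicate 2 (0.628) or Gulo-/- replicate 2 (0.204), and with DESeq2's Wald test (0.165). Gstt1 was at 216 and 138 CPM against 68.7 and 96.4 CPM (-1.04 ± 0.33, adjusted p = 0.0642), the same sign as in S1-gated cells. Gstp1 was at 69.5 and 3.23 CPM against 89.8 and 53.1 CPM (2.11 ± 0.71, adjusted p = 0.198). Of the other genes, Ggct fell here too (-1.81 ± 0.52, adjusted p = 0.0265).

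In endothelial-gated cells 0 of 33 members passed, where 0.414% of 6768 genes did (0.0443% higher and 0.369% lower), and in macrophage-gated cells 0 of 28, where 0% of 3640 did. At an unadjusted p under 0.05 there were 2 and 6 members, again without a share of all genes, and DESeq2's Wald test called 0 in both. In endothelial cells Gstm2 stood at 35.6 and 34.1 CPM in the wild type libraries and 13.2 and 13.9 CPM in Gulo-/- (-1.52 ± 0.37, edgeR adjusted p = 0.165), the reverse of its sign in the proximal tubule. The difference between classes in the genotype effect was tested with a class-by-genotype term. It passed for 3 members between endothelial and proximal tubule cells (1.87% of 9751 genes), Gstm2, Prdx4 and Gstp1, for Gstp1 between macrophages and proximal tubule cells (0.205%), and for 0 of 40 between thick ascending limb and proximal tubule cells (0.267%; 4 at an unadjusted p under 0.05). Distal convoluted and connecting tubule, principal and intercalated cells were too few in wild type replicate 1 for a genotype test.

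Bisulfite sequencing gave a separate view of the same genes. The authors' deposited table lists 86510 regions of differential methylation, of which 122 are annotated to 32 of the 40 members, or 80%, and 75.4% of the 11122 gene symbols tested in proximal tubule-gated cells have a region. The table gives the difference in mean methylation level, a fraction, between side 1 and side 2 of the comparison. It does not say which genotype each side is and has no value per sample, so its differences carry no replicate error. Of the members' regions, 102 were higher on side 2 and 20 on side 1. Side 2 was thus the higher one in 83.6% of the members' regions, in 65.1% of the 40822 regions at genes tested in proximal tubule-gated cells and in 53.8% of all regions. Within introns these shares were 84.9%, 70.3% and 59.4%, and within promoters, where the members lay nearer to the general share, 88.2%, 82.3% and 78.5%. Regions of 1 gene are not independent of each other. The region values are also not split by cell class. Proximal tubule-gated cells were 82.5% and 84.6% of kept cells in the wild type single-cell libraries and 49.6% and 23.7% in the Gulo-/- ones. The part of cell mix in the shares higher on side 2 was not tested. Gpx3 had 12 regions, Nfe2l2 11, and Gclc and Tkt 10 each, and 19 members had regions higher on side 2 only, 2 on side 1 only and 11 in both directions.

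Of these regions, 17 lie in promoters of 14 members (35%, against 33.5% of the gene symbols tested). As side 1 minus side 2, the difference was -0.289 at Gsta2 over 6 CpGs (mm10, chr9:78346585-78347150) and -0.238 at Gpx3 over 4 CpGs (chr11:54902360-54902485). It was -0.197 at Gsr, over 78 CpGs, and -0.196 at Txnrd1, the thioredoxin reductase of the cytosol, over 39. The G6pdx region (chrX:74428147-74429304) had -0.234 over 61 CpGs, the Gclm region (chr3:122245283-122245638) -0.122 over 56 CpGs, and 1 of 2 Srxn1 regions (chr2:152105540-152105653) -0.0945 over 11 CpGs. These 3 regions contain the antioxidant response element cores printed above, 3 of the 11 matches. Nfe2l2 had 2 promoter regions, at -0.163 and -0.187. Prdx4 was the only member with promoter regions higher on side 1, at 0.163 and 0.169. Prdx4 and G6pdx lie on the X chromosome, and the labels give no sex for the bisulfite samples. The part of sex in their differences was not tested. With a minimum absolute difference of 0.2, 76 regions at 28 members were left (70%, against 54.6% of the gene symbols tested). Of these, 5 lay in promoters of 5 members (12.5%, against 8.78% of the gene symbols tested). All 5 were higher on side 2, as were 1640 of all 2059 promoter regions of that size.

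**Figure D5:**
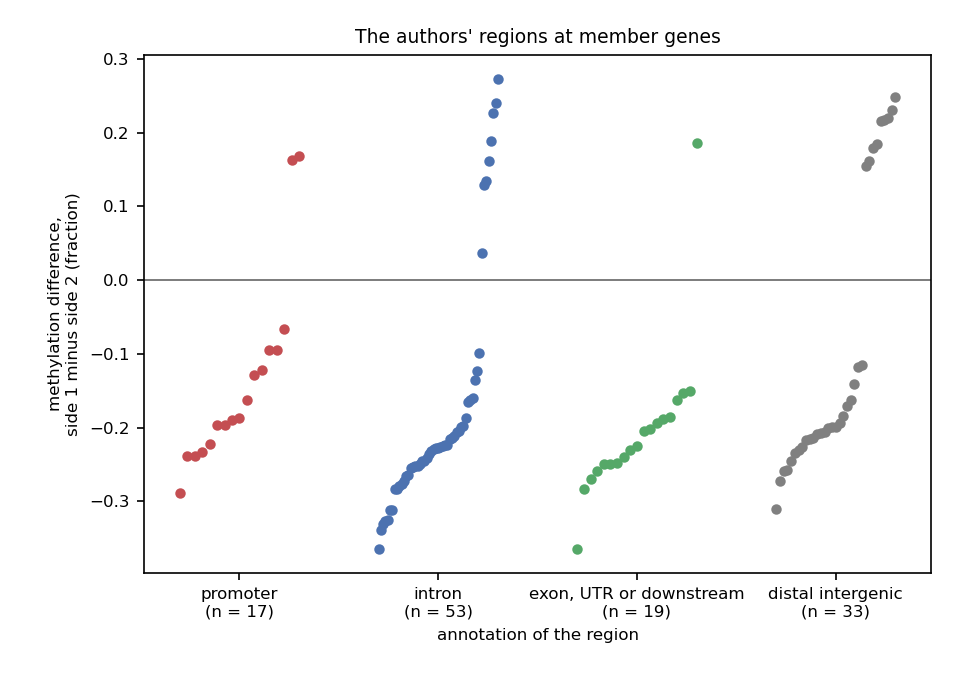
Difference in mean methylation level (side 1 minus side 2, a fraction) of the authors' 122 regions at member genes, by annotation (x axis), sorted within each group; the line marks no difference. Points below the line, 102 of 122, were higher on side 2, among them 15 of 17 promoter regions (88.2%, against 78.5% of all promoter regions listed).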

How the data were processed

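UMI counts per gene and barcode of 4 single-cell libraries were used as deposited by the authors. The counting tool and its strand setting are not given in the sources used here. Per the submitters' processing notes, the build was mm10 and the tools included Seurat 2.3.4 and MACS2 2.1.2. The authors' deposited marker table gives a p-value, a natural log ratio and the fraction of cells with each gene. The p-values were not used. Their deposited region table gives CpG counts and 2 scores, the difference between the sides in methylation fraction and the distance to a start site. The level on each side was not used, since no genotype is tied to a side. Other samples had no part in the comparisons.

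The cell filter was 500 UMIs, 200 genes and at most 50% mitochondrial UMIs, leaving 1575, 7006, 1849 and 12403 cells after removal of shared barcodes and of the highest Scrublet scores (scanpy 1.11.5; 20, 559, 28 and 1559 cells) up to the expected doublet share. Scrublet's own threshold found 2, 0, 5 and 1231, and was not used. A cell joined a class with at least 3 UMIs of 2 markers, 10% of the class's reference marker level and a 2-fold lead. One S3 marker, Acy3, was dropped after its levels were seen, and cells outside every gate (63, 199, 167 and 1684) were left out.

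The counts of each class were added up within a library and tested in edgeR 4.0.16 (TMM, filterByExpr, robust quasi-likelihood F test), with Benjamini-Hochberg adjustment over all genes tested. DESeq2 1.42.0 was an alternative. SE is the log2 difference divided by the square root of F. The fits were checked on simulated data. All 40 members enter the counts, but not each is given with its own values. Values in every library were given for members called between genotypes, and for members that did not overlap and differed 2-fold in the proximal tubule. They were also given for the leading member of some systems in some classes. The members and lists were chosen with earlier results of these data known. Levels are not divided by gene length.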

Additional observations from a re-analysis of the deposited data

Results flagged for a closer look

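The genotype difference of 3 members differed between cell classes when the difference itself was tested (class-by-genotype term with the library in the model, edgeR quasi-likelihood test over 9751 genes, of which 1.87% passed for endothelial against proximal tubule cells and 0.205% for macrophages against proximal tubule cells). For Gstm2 the endothelial minus proximal tubule difference was -3.18 ± 0.55 (SE, adjusted p = 4.43e-04), with 35.6 and 34.1 CPM in wild type and 13.2 and 13.9 CPM in Gulo-/- endothelial cells, against 3.30 and 4.52, and 8.96 and 18.7 CPM in the proximal tubule. For Prdx4 it was -1.48 ± 0.39 (adjusted p = 0.0297), with 161 and 136, and 89.5 and 121 CPM in endothelial cells against 28.0 and 16.1, and 39.8 and 47.4 CPM in the proximal tubule. For Gstp1 it was 2.11 ± 0.47 in endothelial cells (adjusted p = 0.00570) and 2.96 ± 0.67 in macrophages (adjusted p = 0.0406). In proximal tubule-gated cells, principal cell markers were at 26.4 and 56.5 CPM in wild type and 110 and 324 CPM in Gulo-/-, and endothelial markers at 16.2 and 18.0 against 125 and 71.98 CPM. Gstm2 is highest in principal cells and Prdx4 in endothelial cells, and the part of these markers' source in the differences was not tested. Endothelial Gstp1 had 90.3 and 17.0 CPM in wild type and 204 and 104 CPM in Gulo-/-, and macrophage Gstp1 rested on 2 and 4 UMIs in wild type and 8 and 50 in Gulo-/-. Wild type replicate 2 was the lowest library for Gstp1 in both classes and in the proximal tubule. These differences were not refitted under the alternatives.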

How the results depend on the processing

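The differences followed through the alternatives (those of called members, and of the members above with an unadjusted p under 0.05 or a 2-fold gap in the proximal tubule except Prdx4) kept their sign in every fit that held them. Over all members tested, signs did change: leaving out wild type replicate 2 moved the number with a positive genotype difference from 17 to 11 of 40 in the proximal tubule, from 19 to 12 of 40 in S1-gated cells and from 9 to 20 of 35 in the thick ascending limb. In proximal tubule-gated cells, 0 members were called in the reported test, 3 with DESeq2's Wald test and 6 with no filter on low counts. In S1-gated cells DESeq2's Wald test called 1 member, Gstt1, and gave no adjusted p for Gpx6 and Gstm2. The 3 calls there became 6 with no filter, 0 without doublet removal and 1 with a mitochondrial limit of 25%. Among genes no lower in S1-gated cells than over all cells 0 members were called. In the thick ascending limb the 1 call became 0 with DESeq2's Wald test, 2 with no filter, 2 with sex as a block and 0 among genes no lower in the class. With no filter 1 member was called in endothelial cells and 1 in macrophages. With replicate number as a block, 2 members were called in the proximal tubule, 6 in S1-gated cells, 2 in the thick ascending limb and 1 in endothelial cells. The block added Gstp1 in the thick ascending limb (2.07 ± 0.47, edgeR adjusted p = 9.28e-04) and in endothelial cells (1.61 ± 0.33, adjusted p = 0.0155, against 1.46 ± 0.70 and 0.565 without it). Same-numbered libraries deviated together with r = 0.001, 0.04, 0.136, 0.187 and 0.413 in the proximal tubule, S1, thick ascending limb, endothelial and macrophage classes. Replicate 1 was female and replicate 2 male in wild type, and the reverse in Gulo-/-, so sex enters r with opposite signs. Both replicate 1 libraries also had the lower depth. For these reasons r cannot decide whether the numbers are pairs. With 2 pairs, and no label that ties a number to a batch or animal, the numbers were not taken as pairs. Leaving out 1 library gave 0 to 2 members in the proximal tubule, 0 to 3 in S1-gated cells, 0 to 2 in the thick ascending limb, 0 in endothelial cells and 0 to 2 in macrophages. Without wild type replicate 1, Gsta1 and Gsta4 were called in the proximal tubule, Gpx3 and Gstp1 in the thick ascending limb, and Gsta4 and Gstp1 in macrophages. Without Gulo-/- replicate 1, Gpx6 was called in the proximal tubule and Gstp1 in macrophages.

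Between classes, leaving out 1 library gave 33 to 37 members for the proximal tubule, 9 to 19 for principal cells (9 without Gulo-/- replicate 2) and 3 to 17 for intercalated cells (3 without Gulo-/- replicate 2, 8 without Gulo-/- replicate 1). With the 25% limit 11 members were called for the thick ascending limb in place of 18. For S3 against S1 the 12 calls became 7 with DESeq2's Wald test and 7 without doublet removal, and leaving out a library was not possible with 2. The longer promoter motif matched 3 members in place of 11. The 25% limit left too few thick ascending limb cells for a genotype test. At the lowest depths, 3 UMIs equal 23.2 CPM in the thick ascending limb cells of wild type replicate 1, so low members could not be measured there.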
